A study of Drosophila melanogaster with 12 samples.

Results

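Notch, its ligand Delta, the progenitor factor escargot (esg) and the Enhancer of split repressors were followed across Drosophila melanogaster midguts and whole flies kept on 2 diets. The members were 10 genes, N, Dl, esg and 7 E(spl) basic helix-loop-helix genes, chosen as the probe sets that the array's annotation gives to 1 of these symbols and to no other gene. Of the 10, 7 had such a probe set, giving 8 of the 18769 probe sets tested and 7 of 11982 named genes. Delta, the annotation's name for Dl, had 2 probe sets and was found through its gene identifier, and the others were found by symbol. No probe set is listed for N, E(spl)mgamma-HLH or E(spl)m8-HLH, so the receptor itself is not analysed here.

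All samples came from adult w1118 females, a white-eyed laboratory strain, raised on cornmeal food until they eclosed and then housed at 25 °C for 10 days on holidic food, which is fully synthetic and of known composition. The 4 groups, with 3 samples each, were midguts on the glucose-enriched diet (100 g/L), midguts on the unmodified diet, whole flies on the glucose-enriched diet and whole flies on the unmodified diet. A midgut sample pooled 10 dissected midguts and a whole fly sample pooled 5 flies, whose RNA includes that of the midgut. Total RNA was made into biotin-labelled cRNA and hybridised to single-colour Affymetrix 3' arrays, 12 in all. Nothing in the labels tells whether a group's 3 samples were separate cultures, so the spread behind each p-value is that of these samples and may be technical. Precision is limited by having 3 arrays per group.

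In the Notch pathway a cell carrying Delta on its surface activates the receptor Notch on a neighbour, whose cut intracellular part enters the nucleus, joins Suppressor of Hairless and turns on target genes. The classic targets are the clustered E(spl) genes, whose repressor proteins hold back differentiation into other fates. In the adult fly midgut, stem cells express Delta and esg, their undifferentiated daughters receive the Notch signal, and esg keeps both cell types in the progenitor state.

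Values are log2 probe set signals as deposited, so a difference of 1 is a doubling. Because probes bind with different strength, a level is compared between samples for 1 probe set and never between genes. Array medians lay between 3.43 and 3.47 in midguts and between 4.04 and 4.15 in whole flies. A difference was called when its limma adjusted p, by Benjamini-Hochberg over all 18769 probe sets, was under 0.05. Of the marker lists, 5 of 5 measured enterocyte genes were called higher in midguts than in whole flies on both diets. The 4 measured neuronal genes were called lower, of which 2 stayed called with quantile normalization. Of 9 enteroendocrine genes, 3 were called higher and 4 lower on glucose, and 5 higher and 3 lower on the unmodified diet. The 2 measured genes of the list for visceral muscle, Mlc1 and sls, were called lower on both diets. With arrays centred on their medians, 2 of 2 were called lower on glucose and 1 of 2 on the unmodified diet. By the deposited values, 11.8% of all probe sets were called higher and 41.2% lower on glucose, and 14.9% and 40.6% on the unmodified diet. The 6 measured genes listed for crop, hindgut and Malpighian tubules were called higher in midguts too. In each midgut group, replicate 1 stood apart. Glucose midgut replicate 1 had signals of 9.55 for osk and 6.32 for orb, both oocyte transcripts, against highest values of 4.97 and 2.57 in the other glucose midguts, and unmodified midgut replicate 1 had 6.41 for nanos and 5.64 for osk against highest values of 2.80 and 2.70 in the other unmodified midguts. Without either of these 2 samples, the number of members called stayed at 0 for diet in midguts, at 4 between tissues on glucose and at 5 between tissues on the unmodified diet.

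**Figure D1:**
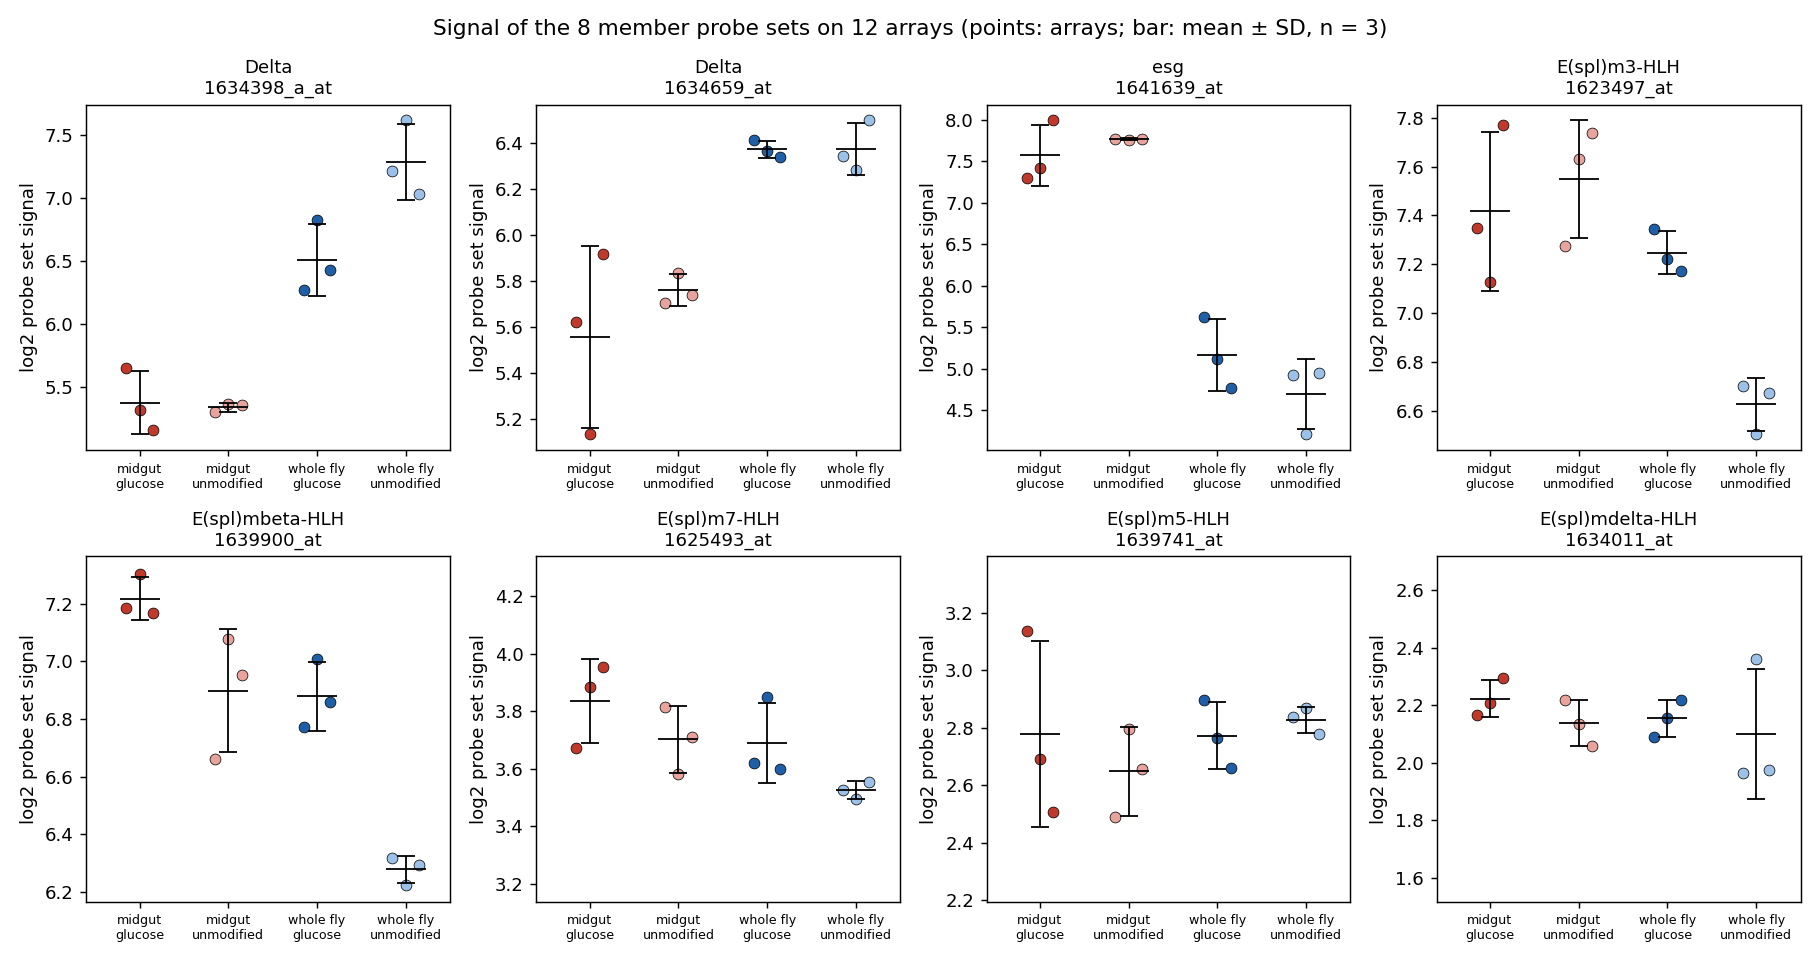
Log2 signal of the 8 member probe sets (vertical axis, 1 panel each) in glucose and unmodified midguts and in glucose and unmodified whole flies. Points are the 12 arrays, and bars give the mean ± SD of 3. The esg signal is highest in midguts and the Delta signals in whole flies, and E(spl)m3-HLH and E(spl)mbeta-HLH are higher in glucose than in unmodified whole flies with no overlap.

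By the deposited values, both probe sets of the ligand Delta gave a lower signal in midguts than in whole flies, a direction that turned for the second one with quantile normalization. The 2 probe sets also gave different diet values in whole flies. On the first probe set, with the suffix a_at, midguts had 5.65, 5.32 and 5.16 on glucose and 5.30, 5.37 and 5.36 on the unmodified diet. Whole flies had 6.27, 6.83 and 6.44 on glucose and 7.22, 7.62 and 7.03 on the unmodified diet. All 6 midgut arrays thus lay below all 6 whole fly arrays, and the glucose and unmodified arrays overlapped in midguts but were apart in whole flies. Midgut minus whole fly was -1.14 ± 0.18 on glucose (limma log2 difference ± SE, n = 3 each, adjusted p = 0.000113) and -1.95 ± 0.18 on the unmodified diet (adjusted p = 7.16e-07). The first of these calls was lost with quantile normalization over the 12 arrays (-0.065, adjusted p = 0.773).

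Between diets, the same Delta probe set averaged 6.51 ± 0.29 in glucose whole flies and 7.29 ± 0.30 in unmodified whole flies (SD, n = 3 each). The difference of -0.78 (SE 0.19, 95% interval -1.22 to -0.33) did not pass the threshold in limma (adjusted p = 0.0672), although the arrays did not overlap. It did pass in the fit over all 12 arrays (adjusted p = 0.0271) and without glucose whole fly replicate 2 (-0.93, adjusted p = 0.0305). The latter fit called 1563 of all probe sets, against 584 with every whole fly array. No fit that left out another whole fly array called this Delta difference. In midguts the diet difference was 0.034 (95% interval -0.28 to 0.35, adjusted p = 0.973), and the midgut diet difference minus that of whole flies, 0.81 (SE 0.25), was not called (adjusted p = 0.166). With the replicate number as a block this difference was called (0.81, adjusted p = 0.0434). The group means ran from unmodified whole flies, the highest, through glucose whole flies to glucose and unmodified midguts, and the midgut groups overlapped.

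The second Delta probe set did not follow the first between diets. Whole flies had 6.41, 6.36 and 6.34 on glucose and 6.34, 6.28 and 6.50 on the unmodified diet. Midguts had 5.62, 5.13 and 5.92 on glucose and 5.70, 5.84 and 5.74 on the unmodified diet. Glucose and unmodified arrays overlapped in both tissues. The diet difference in whole flies was -0.0021 (95% interval -0.24 to 0.23, adjusted p = 0.995) and that in midguts -0.20 (95% interval -0.63 to 0.23, adjusted p = 0.865). Midgut signals were lower than whole fly signals by the deposited values, at -0.81 on glucose (adjusted p = 0.000673) and -0.62 on the unmodified diet (adjusted p = 0.00478), but these calls depended on scaling. With arrays centred on their medians they were lost, at -0.14 on glucose (adjusted p = 0.439) and -0.0011 on the unmodified diet (adjusted p = 0.995). With quantile normalization the sign turned, to 0.23 on glucose (adjusted p = 0.231) and to 0.54 on the unmodified diet, where the midgut signal was called higher (adjusted p = 0.00943).

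Within each array, the first Delta probe set minus the second was -0.14, 0.47 and 0.10 in glucose whole flies and 0.87, 1.34 and 0.53 in unmodified whole flies. These values did not overlap. Their mean difference of -0.77 had an exact two-sided permutation p = 0.1, the smallest that 3 arrays against 3 allow. In midguts the same within-array values were 0.03, 0.19 and -0.76 on glucose and -0.40, -0.47 and -0.38 on the unmodified diet, which overlapped only through glucose replicate 3 (difference 0.24, exact permutation p = 0.4). The suffix a_at marks a probe set designed to match several transcripts of 1 gene, and which Delta transcripts each probe set reads was not tested.

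Whole flies hold ovaries, and most of the ovary transcripts listed were lower on glucose too. Of 9 germline and ovary genes measured, 3 were called lower in glucose than in unmodified whole flies and 0 higher, with a median difference of -0.71, 7 below 0 and 2 above 0. Among all probe sets 1.8% were called lower and 1.32% higher, with a median of -0.001. Leaving out any 1 whole fly array but glucose replicate 2 left only 0 to 2 of all probe sets called. The called ovary genes were orb, a translational regulator of the oocyte (-0.74), nanos, a posterior determinant (-0.65), and Cp15, an eggshell protein (-4.24). The gene grk, an oocyte growth factor named after its values were seen, went the other way, with 7.82, 7.45 and 7.69 in glucose and 7.37, 7.18 and 7.32 in unmodified whole flies, which did not overlap, and its difference of 0.36 was not called (limma, adjusted p = 0.138). The log2 of the list's summed signal was 14.05 to 14.25 in glucose and 14.61 to 14.97 in unmodified whole flies, and 12.33 to 12.56 in glucose and 12.51 to 12.70 in unmodified midguts. A log2 array signal above 0 does not show that a gene is expressed, so these values do not show which cells a sample held. Fewer cells of a type and less RNA per cell cannot be told apart in such samples, and the part of ovarian RNA in the Delta result was not tested.

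**Figure D2:**
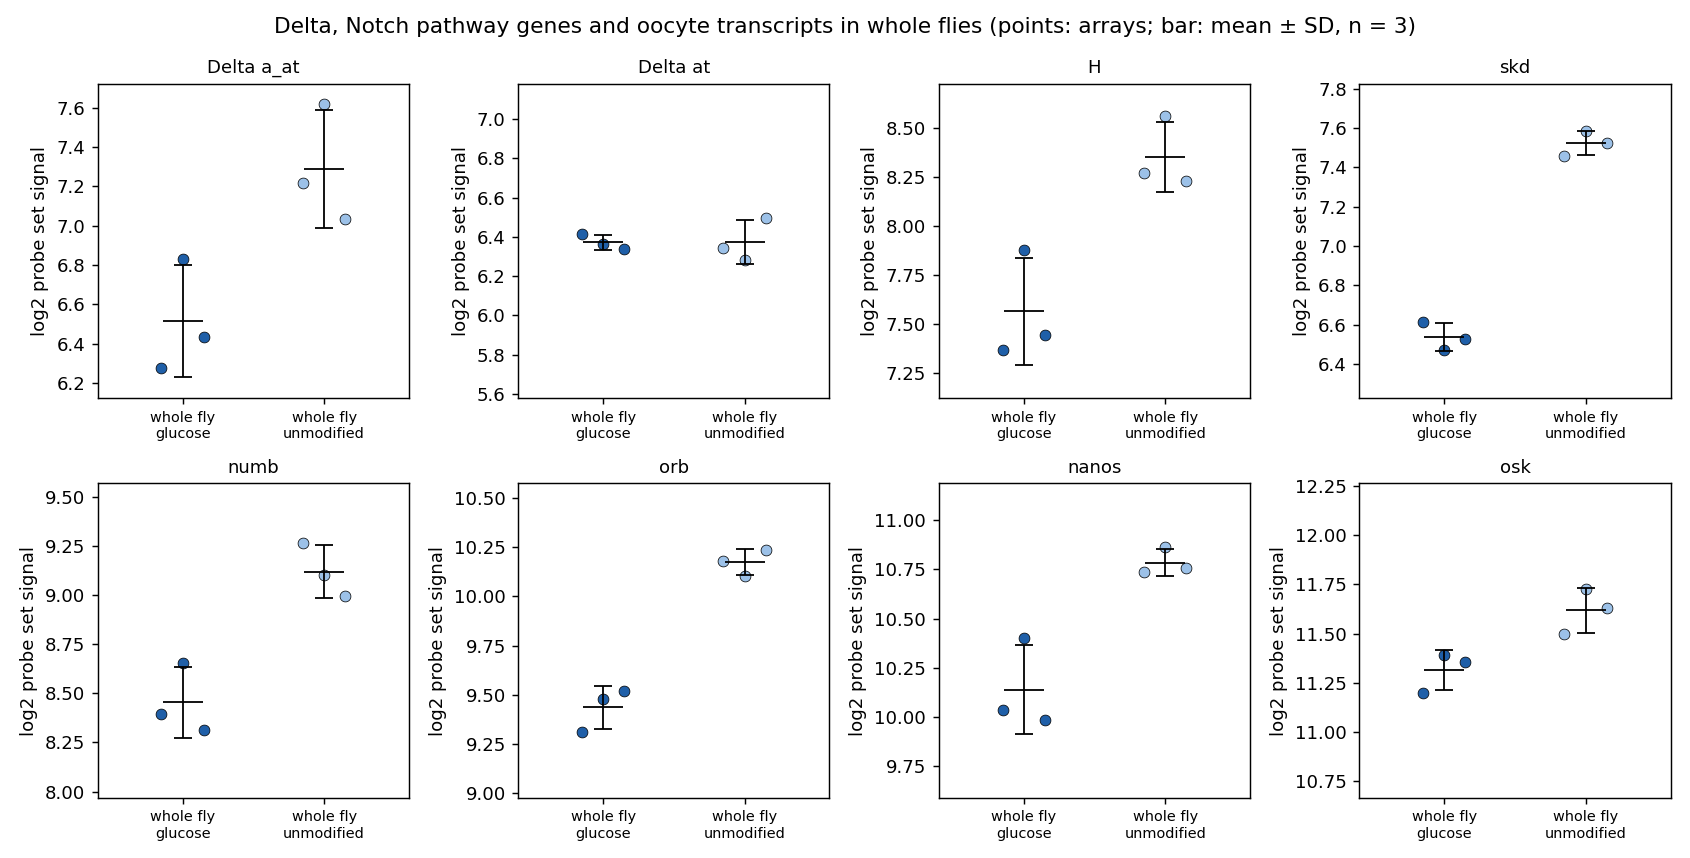
Log2 signal in glucose and unmodified whole flies for both Delta probe sets, for H, skd and numb of the Notch pathway and for the oocyte transcripts orb, nanos and osk. Points are arrays, bars give the mean ± SD of 3. Glucose lies below unmodified without overlap in every panel except that of the second Delta probe set. The 3 oocyte transcripts were picked from 9 germline and ovary genes measured, of which 7 had lower and 2 higher mean signal on glucose. Of the 3, osk was not called, and grk, not shown, was higher on glucose without overlap.

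The progenitor factor esg, a zinc finger repressor of the Snail family, was the member with the largest tissue difference. Its probe set gave 7.30, 7.42 and 7.99 in glucose midguts and 7.77, 7.76 and 7.78 in unmodified midguts. Whole flies had 5.62, 5.11 and 4.76 on glucose and 4.93, 4.21 and 4.96 on the unmodified diet. Every midgut array was above every whole fly array. Midgut minus whole fly was 2.41 ± 0.25 on glucose (limma, adjusted p = 2.67e-06) and 3.07 ± 0.25 on the unmodified diet (adjusted p = 2.23e-07), which is 5.31-fold and 8.42-fold. Both were called under all 6 other processing settings tried, at 2.41 to 3.25 on glucose and 3.07 to 3.79 on the unmodified diet.

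No diet difference of esg was called. Midguts averaged 7.57 ± 0.37 on glucose and 7.77 ± 0.0083 on the unmodified diet (SD, n = 3 each), a difference of -0.20 with a 95% interval of -0.60 to 0.21 (limma, adjusted p = 0.858). The spread between glucose midguts was thus far wider than between unmodified midguts, with replicate 3 above and replicates 1 and 2 below all 3 unmodified arrays. In whole flies the diet difference was 0.47, with a 95% interval of -0.14 to 1.08 (adjusted p = 0.369), and the arrays overlapped. The midgut diet difference minus that of whole flies was -0.67 (SE 0.35, adjusted p = 0.394).

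Among the targets, E(spl)m3-HLH and E(spl)mbeta-HLH, both repressors with a basic helix-loop-helix domain, were higher in whole flies on glucose. E(spl)m3-HLH had 7.34, 7.22 and 7.17 in glucose whole flies and 6.70, 6.50 and 6.67 in unmodified whole flies. E(spl)mbeta-HLH had 6.77, 7.01 and 6.86 in glucose whole flies and 6.32, 6.22 and 6.29 in unmodified whole flies. In each gene the 3 glucose arrays lay above the 3 unmodified ones. E(spl)m3-HLH rose by 0.62 ± 0.11 (limma log2 difference ± SE, n = 3 each, adjusted p = 0.0372), or 1.54-fold. E(spl)mbeta-HLH rose by 0.60 ± 0.10 (adjusted p = 0.0383), or 1.52-fold. These were the 2 of 8 member probe sets called in this comparison, against 1.32% of all probe sets called higher and 3.11% called in either direction.

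Both calls depended on having all arrays. Leaving out 1 whole fly array at a time gave 0.56 to 0.66 for E(spl)m3-HLH and 0.54 to 0.65 for E(spl)mbeta-HLH, and only the fits without glucose replicate 2 kept them called. Without any of the other 5 arrays the adjusted p lay between 0.0678 and 0.130, and 0 to 2 of all probe sets were called. Whole fly arrays of the 2 diets also differed in some cell type markers, where 1.32% of all probe sets were called higher and 1.8% lower. By the deposited values, 0 genes were called in the enterocyte, neuronal, muscle and crop, hindgut and Malpighian tubule lists. Their medians were 0.16, -0.007, 0.52 and 0.11. Of 9 enteroendocrine genes measured, 8 had higher and 1 lower mean signal on glucose, with 1 called (Dh31, a neuropeptide, 0.82), and the log2 of their summed signal was 9.39 to 9.79 on glucose and 8.99 to 9.29 on the unmodified diet. Of 5 tracheal and hemocyte genes, 1 was called higher (Hml, a hemocyte marker, 1.04), with summed signals of 9.59 to 10.63 on glucose and 8.78 to 9.44 on the unmodified diet. The part of these cells in the E(spl) results was not tested.

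In midguts neither gene was called between diets. E(spl)mbeta-HLH had 7.18, 7.30 and 7.17 on glucose and 6.66, 7.08 and 6.95 on the unmodified diet. Its glucose arrays were above its unmodified ones, by 0.32 with a 95% interval of 0.027 to 0.62 (limma, adjusted p = 0.788). It was the 1 of 8 member probe sets whose midgut arrays did not overlap between diets, against 11.7% of all probe sets in either direction and 6.36% with glucose higher. E(spl)m3-HLH had 7.35, 7.13 and 7.77 on glucose and 7.28, 7.63 and 7.74 on the unmodified diet, and its arrays overlapped (-0.13, 95% interval -0.56 to 0.30, adjusted p = 0.915). In all, 0 of 8 member probe sets were called in midguts by limma, and 1 had an unadjusted p under 0.05, where 0.00533% of all probe sets were called and 6.2% had an unadjusted p under 0.05. With the replicate number as a block, 24 of all probe sets and still 0 members were called, against 1 of all probe sets without it.

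The diet difference in midguts minus that in whole flies was -0.75 for E(spl)m3-HLH (SE 0.23, 95% interval -1.25 to -0.26, limma adjusted p = 0.160) and -0.28 for E(spl)mbeta-HLH (SE 0.16, adjusted p = 0.446). Of the 8 member probe sets, 0 were called in this test and 2 had an unadjusted p under 0.05, the first of Delta and that of E(spl)m3-HLH, where 0.0426% of all probe sets were called and 15.1% had an unadjusted p under 0.05. With the replicate number as a block, 1 member was called, the first Delta probe set (limma, adjusted p = 0.0434). Deviations of same-numbered samples correlated at 0.31 to 0.39 in midguts and at -0.01 to 0.31 in whole flies.

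Between tissues, E(spl)m3-HLH averaged 7.55 ± 0.24 in unmodified midguts and 6.63 ± 0.11 in unmodified whole flies, a difference of 0.92 ± 0.16 (limma, adjusted p = 0.000260). On glucose the averages were 7.42 ± 0.33 in midguts and 7.25 ± 0.088 in whole flies, and the difference of 0.17 was not called (adjusted p = 0.416), but it was 0.85 with arrays centred on their medians and 0.92 with quantile normalization, both called. E(spl)mbeta-HLH averaged 6.90 ± 0.21 in unmodified midguts and 6.28 ± 0.048 in unmodified whole flies, a difference of 0.62 ± 0.11 (adjusted p = 0.000419). On glucose it averaged 7.22 ± 0.075 in midguts and 6.88 ± 0.12 in whole flies, a difference of 0.34 ± 0.11 (adjusted p = 0.0242) that was lost with a trended robust prior (adjusted p = 0.0505) and without glucose whole fly replicate 1, glucose whole fly replicate 3 or glucose midgut replicate 2 (adjusted p = 0.0896, 0.0623 and 0.0820).

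The order of groups for E(spl)mbeta-HLH was glucose midgut, unmodified midgut, glucose whole fly and unmodified whole fly from high to low. The middle neighbours, unmodified midgut and glucose whole fly, differed by less than their SDs. For E(spl)m3-HLH the order began with unmodified midgut, then glucose midgut and glucose whole fly, whose arrays overlapped, and ended with unmodified whole fly, which was apart from the others. For esg the order was unmodified midgut, glucose midgut, glucose whole fly and unmodified whole fly, with overlap within each tissue.

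None of the other E(spl) repressors measured was called between diets. E(spl)m7-HLH lay above the array median on every midgut array and below it on every whole fly array. E(spl)m7-HLH had 3.67, 3.88 and 3.95 in glucose and 3.82, 3.58 and 3.71 in unmodified midguts, and 3.62, 3.85 and 3.60 in glucose and 3.53, 3.49 and 3.56 in unmodified whole flies. Its whole fly arrays did not overlap between diets, yet the difference of 0.17 was not called (limma, 95% interval -0.081 to 0.41, adjusted p = 0.447). In all, 4 of 8 member probe sets had whole fly arrays that did not overlap between diets, 3 higher and 1 lower on glucose, against 25.4% of all probe sets (11.6% higher and 13.7% lower). E(spl)m5-HLH ranged from 2.49 to 3.13 and E(spl)mdelta-HLH from 1.96 to 2.36 over the 12 arrays, below the median of every array. The diet difference of E(spl)m5-HLH was 0.13 in midguts and -0.055 in whole flies, and that of E(spl)mdelta-HLH 0.085 in midguts and 0.054 in whole flies, none of them called. Whether the low signals of these 2 genes hid a difference was not tested, and the lack of a call does not show that the genes are silent or unchanged.

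Across tissues, 4 of 8 member probe sets were called on glucose, 2 higher and 2 lower in midguts, where 53% of all probe sets were called (11.8% higher and 41.2% lower). On the unmodified diet 5 of 8 were called, 3 higher and 2 lower, where 55.5% of all were called (14.9% higher and 40.6% lower). The total shares are near the background. The median difference of all probe sets was -0.17 on glucose and -0.14 on the unmodified diet. With arrays centred on their medians it became 0.50 on glucose and 0.48 on the unmodified diet, and 7 of 8 members were called on each diet, 6 higher and 1 lower. Since the median itself moves with the scaling, tissue differences of about this size depend on it, and only esg and E(spl)mbeta-HLH on both diets, and E(spl)m3-HLH on the unmodified diet, were called higher in midguts under every scaling tried.

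**Figure D3:**
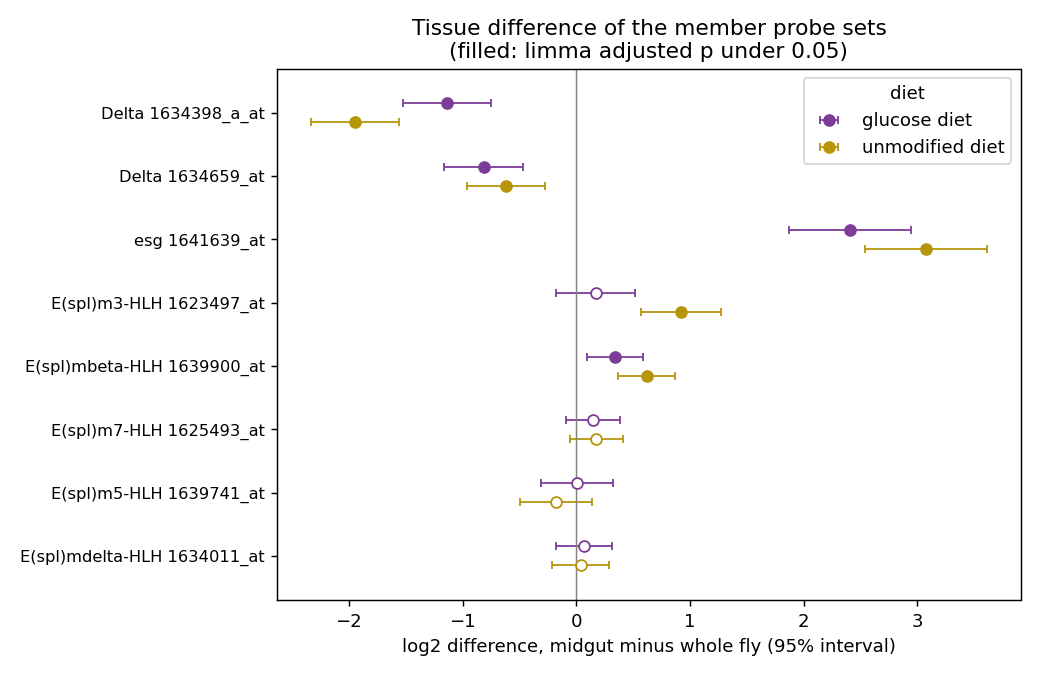
Midgut minus whole fly log2 difference of each member probe set (horizontal axis) on the glucose and unmodified diets, with 95% intervals from limma. Filled points passed the adjusted threshold by the deposited values. The esg probe set lies farthest to the right at 2.41 and 3.07, and the first Delta probe set farthest to the left at -1.14 and -1.95.

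The E(spl) genes sit side by side on 1 chromosome. In the RefSeq annotation of the Release 6 assembly, 12 protein-coding genes run in order from E(spl)mdelta-HLH to E(spl)m8-HLH, with 6 long non-coding RNA genes between them. Probe sets are listed for 10 of the 12, which include 5 genes of other kinds, the Bearded family genes malpha, m2, m4 and m6, whose small proteins act on Notch ligand endocytosis, and Kaz-m1, a Kazal-type protease inhibitor. In whole flies E(spl)malpha-BFM, which lies next to E(spl)mbeta-HLH among the protein-coding genes, had 4.55, 4.70 and 4.49 on glucose and 3.65, 3.79 and 3.93 on the unmodified diet. Its groups did not overlap, and it rose by 0.79 ± 0.11 (limma, adjusted p = 0.0343), a call that only the fit without glucose replicate 2 kept when 1 array was left out. In midguts it had 5.89, 5.87 and 6.10 on glucose and 5.62, 5.82 and 6.17 on the unmodified diet, which overlapped.

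Kaz-m1 had 8.85, 8.57 and 8.55 in glucose and 8.55, 7.06 and 8.34 in unmodified whole flies, and its difference of 0.67 (SE 0.35) was not called (limma, adjusted p = 0.328). Its midgut signals of 10.74 to 11.13 on glucose and 10.66 to 11.11 on the unmodified diet were above all whole fly signals, by 2.29 on glucose and 2.84 on the unmodified diet, both called. The signals of E(spl)m2-BFM, E(spl)m4-BFM and E(spl)m6-BFM lay between 1.94 and 3.73 over the 12 arrays, and none was called between diets. The 3 genes of the complex called between diets in whole flies were thus E(spl)mbeta-HLH, E(spl)malpha-BFM and E(spl)m3-HLH, all higher on glucose.

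**Figure D4:**
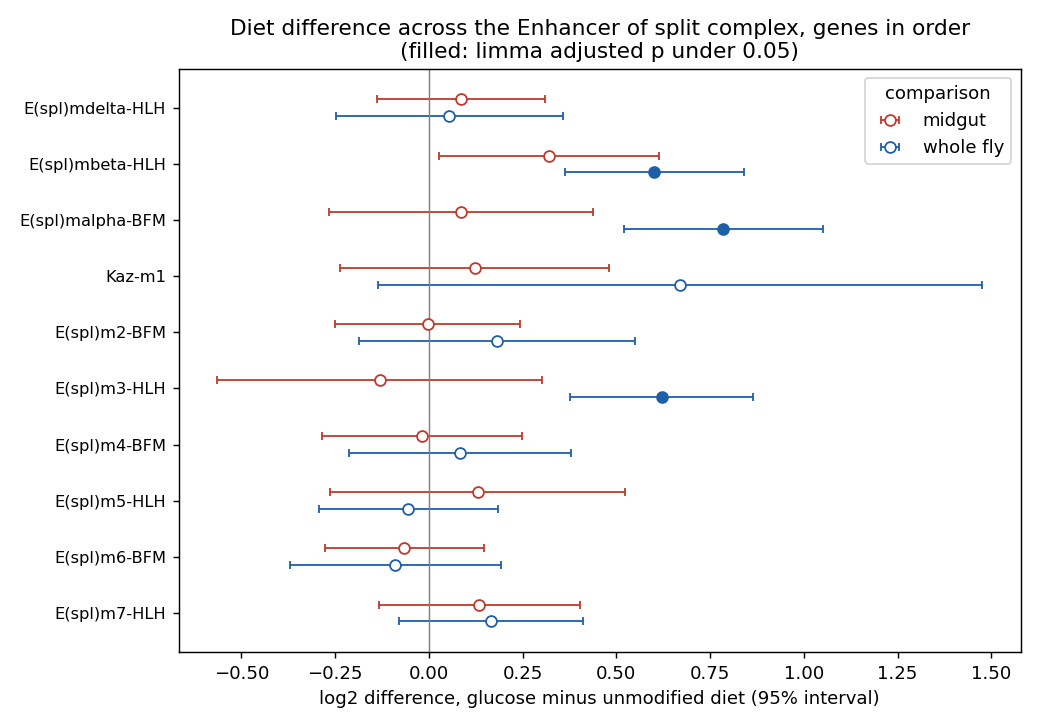
Glucose minus unmodified log2 difference (horizontal axis, 95% intervals from limma) for the 10 protein-coding genes of the Enhancer of split complex with a probe set, in chromosome order from top to bottom, in midguts and whole flies. Filled points, all in whole flies, are E(spl)mbeta-HLH (0.60), E(spl)malpha-BFM (0.79) and E(spl)m3-HLH (0.62).

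Other genes of the pathway were read from lists ordered by role. Of the 55 genes of all lists together, 0 were called between diets in midguts by limma. There 3 of the 55 had an unadjusted p under 0.05, against 6.2% of all probe sets. In whole flies 17 of the 55 did, against 21.4% of all probe sets. In whole flies the genes called outside the Enhancer of split complex were skd, H and numb, all lower on glucose, where 1.8% of all probe sets were called lower. Of 6 measured genes of the nuclear complex, 0 were higher and 2 lower, with a median of -0.23 against -0.001 for all probe sets. The called genes were skd, a subunit of the Mediator kinase module, and H, the Hairless adaptor that makes Suppressor of Hairless repress.

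The skd signal was 6.61, 6.47 and 6.53 in glucose and 7.46, 7.59 and 7.53 in unmodified whole flies, and it fell by 0.99 on the log2 scale (SE 0.10, limma adjusted p = 0.0310). The H signal was 7.37, 7.88 and 7.45 in glucose and 8.27, 8.56 and 8.23 in unmodified whole flies, and it fell by 0.79 (SE 0.16, adjusted p = 0.0473). That call was lost in the fit over all 12 arrays (adjusted p = 0.0536). Both probe sets carry the suffix s_at, which marks probes that can match more than 1 gene, so their assignment is less certain. The same suffix and limit apply to the probe sets of Liprin-alpha, lqf, mam, heca and PolI, named below. Of 7 measured genes of receptor trafficking and inhibition, 1 was lower and 0 higher, numb, the inhibitor handed to 1 daughter in asymmetric divisions. Its signal was 8.39, 8.66 and 8.31 in glucose and 9.26, 9.10 and 8.99 in unmodified whole flies, and it fell by 0.67 (SE 0.13, adjusted p = 0.0416). In midguts the glucose arrays of numb also lay wholly below the unmodified ones, without a call. There 11.7% of all probe sets had no overlap in either direction. Leaving out 1 array ended the calls of skd, H and numb except without glucose replicate 2.

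No other gene of the 4 pathway lists was called between diets in whole flies by the fit on their 6 arrays. Several had glucose arrays wholly below the unmodified ones, among them dx, a ubiquitin ligase that binds Notch (-0.88, limma adjusted p = 0.0614), Liprin-alpha, a scaffold protein (-0.76, adjusted p = 0.0737), rumi, which adds glucose to the Notch receptor (-0.55, adjusted p = 0.0672), Tace, a metalloprotease that can cut Notch (-0.18, adjusted p = 0.405), and neur, the ubiquitin ligase that sends Delta into endocytosis (-0.48, adjusted p = 0.0536). The fit over all 12 arrays called dx, Liprin-alpha and rumi (adjusted p = 0.0315, 0.0234 and 0.0289), the trended robust prior called dx (adjusted p = 0.0433), and centring called neur (adjusted p = 0.0445). Counting called genes and Delta, 3 of 8 ligand and 3 of 7 receptor genes had whole fly glucose arrays wholly below the unmodified ones. So did 2 of 6 nuclear and 2 of 7 trafficking genes, against 13.7% of all probe sets. Wholly above were 1, 0, 1 and 0 genes of these lists, against 11.6% of all probe sets. The 2 genes lqf and mam, named after their values were seen, had glucose arrays wholly above the unmodified ones. The difference was 0.38 for lqf, the epsin of ligand endocytosis (adjusted p = 0.123), and 0.21 for mam, the coactivator of the nuclear complex (adjusted p = 0.292). In midguts the glucose arrays of mam also lay wholly above the unmodified ones, without a call. Of 8 measured genes of ligands and ligand handling and 7 of receptor processing, 0 were called in either list, with medians of 0.064 for the first and -0.18 for the second, and 4 of the first (1 higher and 3 lower) and 1 of the second (lower) had an unadjusted p under 0.05, as did 21.4% of all probe sets. Of the ovary genes given above, 7 lay below 0 and 2 above it in whole flies, and their part was not tested.

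**Figure D5:**
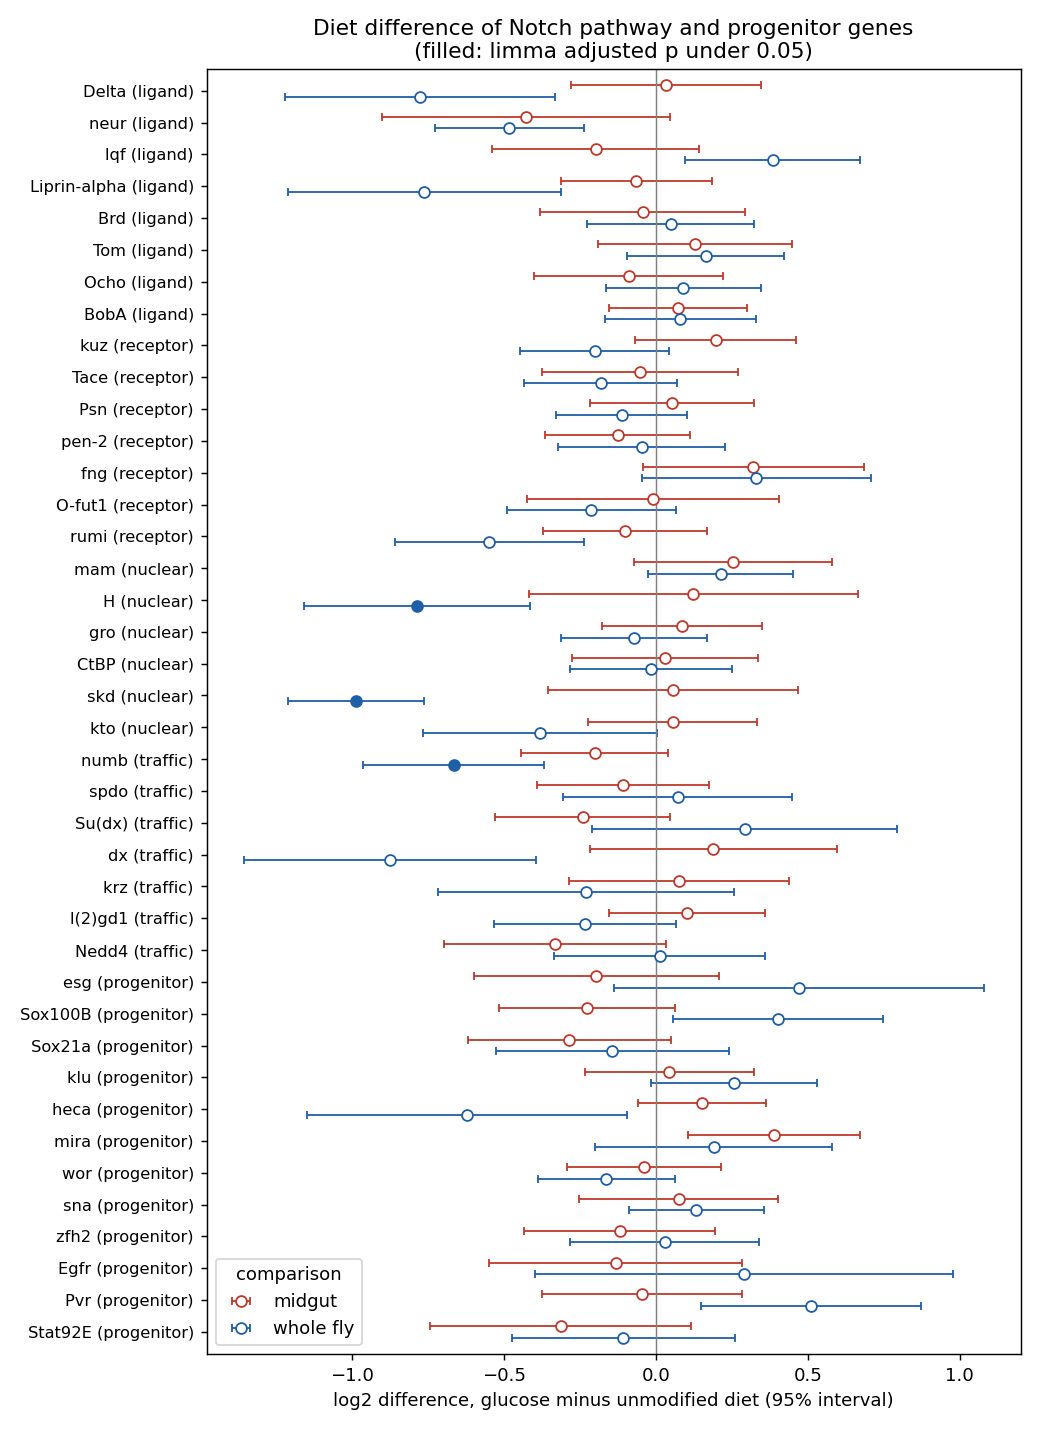
Glucose minus unmodified log2 difference (horizontal axis, 95% intervals from limma) of Notch pathway and progenitor genes in midguts and whole flies, with 1 row per gene and its list in brackets; Delta is shown by its first probe set. The 3 filled points, all in whole flies and below 0, are H, skd and numb, and no midgut point is filled.

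Of the 16 midgut progenitor genes listed, esg and Delta included, 14 had a probe set, and 0 were called between diets in either tissue, with medians of -0.077 in midguts and 0.10 in whole flies. At an unadjusted p under 0.05 there were 1 in midguts, where 6.2% of all probe sets passed that threshold, and 4 in whole flies (2 higher and 2 lower), where 21.4% did. In midguts mira, an adaptor of asymmetric cell division, had 4.80, 4.77 and 4.49 on glucose and 4.19, 4.43 and 4.27 on the unmodified diet. These groups were apart, but the difference of 0.39 was not called (limma, adjusted p = 0.713). The progenitor gene heca was apart in midguts too, higher on glucose and without a call. These were the 2 of 14 apart in midguts, where 11.7% of all probe sets were, 6.36% with glucose higher. The transcription factor ct, a Notch target in other fly tissues, was likewise apart in midguts, at 0.40 (adjusted p = 0.668). In whole flies Pvr, a growth factor receptor, and Sox100B, a transcription factor of midgut progenitors, had glucose arrays above unmodified ones without a call, at 0.51 (adjusted p = 0.110) and 0.40 (adjusted p = 0.168). Besides these 2 of 14, another 2, Delta among them, had glucose arrays wholly below. The shares of all probe sets apart in whole flies were 11.6% higher and 13.7% lower.

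Between tissues, genes of receptor processing and of the nuclear complex mostly gave lower signals in midguts by the deposited values, in counts that changed with the scaling. Progenitor genes went both ways. On the unmodified diet all 7 measured genes of receptor processing and all 6 of the nuclear complex were called lower in midguts. Of all probe sets, 40.6% were called lower on the unmodified diet and 41.2% on glucose. On glucose 6 of 7 and 5 of 6 were called lower, while medians of these lists were -0.84 to -1.35 by the deposited values. With arrays centred on their medians, 3 of 7 receptor genes on glucose and 4 of 7 on the unmodified diet were called lower and 1 higher on each diet, and 4 of 6 nuclear genes were called lower on each diet. With quantile normalization 3 of 7 receptor genes were called higher and 3 lower on glucose, and 2 higher and 3 lower on the unmodified diet, with medians of -0.23 on glucose and -0.0021 on the unmodified diet. Of the nuclear genes, 2 were then called higher and 4 lower on each diet. The genes farthest below were called lower under each of the scalings tried, among them O-fut1, which adds fucose to Notch (-3.55 on glucose and -3.75 on the unmodified diet), rumi (-2.72 and -3.17), skd (-2.88 and -3.93), dx (-2.21 and -3.28) and H (-1.77 and -2.68).

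Of the 14 progenitor genes measured, 5 were called higher and 5 lower in midguts on glucose, and 7 higher and 5 lower on the unmodified diet. Of all probe sets, 11.8% were called higher and 41.2% lower on glucose, and 14.9% and 40.6% on the unmodified diet. With centring the progenitor counts were 9 higher and 1 lower on glucose and 9 higher and 2 lower on the unmodified diet. Of all 18769 probe sets, centring called 11319 higher and 4286 lower on glucose, and 11094 and 4949 on the unmodified diet. With quantile normalization the progenitor counts were 8 higher and 2 lower on glucose and 8 higher and 4 lower on the unmodified diet. Of all probe sets, 5425 were then called higher and 4500 lower on glucose, and 5785 and 4885 on the unmodified diet. Beside esg, Sox100B had 6.04, 5.94 and 6.30 in glucose midguts and 3.78, 3.90 and 3.89 in glucose whole flies, and 6.20, 6.33 and 6.43 in unmodified midguts and 3.76, 3.20 and 3.40 in unmodified whole flies. Its tissues were wholly apart, with differences of 2.23 on glucose (limma, adjusted p = 5.50e-08) and 2.86 on the unmodified diet (adjusted p = 5.84e-09). The mira difference was 1.30 on glucose and 1.10 on the unmodified diet, also called. All 9 germline and ovary genes measured were called lower in midguts on both diets by the deposited values, and 8 of 9 with centring. The part of these genes and of the 4 neuronal genes in the lower Delta and pathway signals was not tested.

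Likeness of pattern was described, with no test, by the root mean square difference of log2 signal over the 12 arrays after each probe set was centred on its own mean. For the first Delta probe set, whose own deviation from its mean was 0.841, the nearest of 13645 other single-gene probe sets were those of PolI (0.0996), Cul5 (0.111) and Vav (0.118). Its distance to the second Delta probe set was 0.581. For esg, whose own deviation was 1.41, the nearest were CG33514 (0.190), Inx7 (0.204) and Ugt304A1 (0.205). Among members, E(spl)m3-HLH and E(spl)mbeta-HLH differed by 0.247, while Delta's first probe set differed from esg by 2.23, since Delta was lower and esg higher in midguts. All these points share the same 12 arrays and mostly reflect the tissue contrast.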

How the data were processed

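The deposited table holds 1 log2 signal for each of 18952 probe sets on each of 12 arrays; per the submitters' processing notes the authors used Affymetrix Expression Console, with a version and summarisation algorithm not given in the sources used here. Joint normalization of both tissues was likewise unstated. That values are log2 was judged from their range. The 183 Affymetrix controls were left out. In the platform annotation 13647 tested probe sets have 1 gene symbol, 402 have several and were not named, and 4720 have none listed. Older symbols in the lists were matched through gene identifiers in a RefSeq table.

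Diet comparisons (glucose minus unmodified) came from limma 3.58.1 (lmFit and eBayes, R 4.3.3) on the 6 arrays of a tissue; tissue contrasts and the difference of diet effects were fitted on all 12. Tests were two-sided, adjusted by Benjamini-Hochberg over 18769 probe sets, and called under 0.05. An exact permutation test of 3 against 3 cannot go below 0.1. The fit was tested on simulated data. Members, gene lists and tests were chosen with earlier results of these data known. Most pathway and progenitor genes named beside the members were drawn from 3 sets, and not every gene of these sets is named. The sets were those called between diets, the 2 per list and tissue with the smallest p among those without overlap, and the 4 per list with the largest tissue difference. Named outside these sets were marker genes, genes of like pattern, E(spl)m2-BFM, E(spl)m4-BFM and E(spl)m6-BFM, and lqf and mam for their whole fly diet values. A list gene is read by its brightest probe set.

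Within a group, arrays correlated at 0.9887 to 0.9939 across probe sets, and at most 0.0213% of values were identical in a pair, so none was counted as a duplicate. Deviations from group means of same-numbered midgut samples correlated at 0.39, 0.31 and 0.36, so the numbers may pair midguts. This comes from the data, and the labels do not say what a number shares. Samples with different numbers were not compared. The main diet tests used no pairs, and the replicate block was an alternative. For whole flies the values were 0.20, 0.31 and -0.01, and they were not taken as pairs. Alternatives were removal of the dimmest 40% of probe sets, a trended robust prior, median centring, quantile normalization, the replicate block, another choice of arrays in the fit, and leaving out each array. The table names no genome build, so no coordinates are printed.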

Additional observations from a re-analysis of the deposited data

How the results depend on the processing

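The replicate block changed no member call in midguts (0 with and without it), and raised all midgut calls to 24 against 1; the trended robust prior gave 10, the fit over 12 arrays 6, and leaving out an array 0 to 0. In whole flies the members called were 2 under the filter, prior and scaling settings, while the block and the fit over 12 arrays each gave 3 by adding the first Delta probe set (adjusted p = 0.0221 with the block), and 0 to 3 when 1 array was left out. All whole fly calls were 584, 1711 with the block, 1234 in the fit over 12 arrays and 0 to 1563 with 1 array left out. For the difference of diet effects, all calls were 8, and 0 without the dimmest 40%, 0 with the trended robust prior, 24 with centring, 21 with quantile normalization, 749 with the block and 0 to 361 with 1 array left out; members called were 0, and 1 with the block (Delta, adjusted p = 0.0434). Centring moved tissue calls to 15605 against 9951 on glucose (11319 higher and 4286 lower, against 2221 and 7730), to 16043 against 10411 on the unmodified diet (11094 and 4949, against 2797 and 7614), and member calls on glucose to 7 against 4. Signs turned on the unmodified diet for E(spl)m5-HLH (0.43) and neur (0.41) with centring and for the second Delta probe set (0.54) and neur (0.80) with quantile normalization, and on glucose for Brd (0.44) with centring and for the second Delta probe set (0.23), krz (0.067) and Egfr (0.036) with quantile normalization. The cause was not tested. Signals near background, as for E(spl)m5-HLH and E(spl)mdelta-HLH, limit what can be detected, and after the dimmest 40% were removed these had no value.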
